A study of Homo sapiens with 12 samples.

Results

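PI3K, AKT and mTOR signaling is described here through 37 of its genes, out of 23064 gene symbols in the count tables of the CAL-29 and 5637 cell lines. Members were chosen by symbol as known parts of the pathway, and each was measured on the RefSeq transcript with the most counts. Both lines are established and come from human bladder carcinoma. RNA was sequenced 3 days after transfection with a control siRNA (siCtrl) or with an siRNA against KMT9α (siKMT9α), the catalytic subunit of lysine methyltransferase 9, encoded by N6AMT1. Each of the 4 groups holds 3 libraries, 12 in all, and the labels give the genotype of all groups as WT. The siRNA concentration was higher in 5637 than in CAL-29 cells and the transfection reagent differed, so dose and reagent cannot be told apart from the line. The labels do not say that libraries of a group came from separate cultures, so p-values measure the spread between these libraries, which may be technical.

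In this pathway, receptors for insulin and insulin-like growth factor phosphorylate the docking proteins IRS1 and IRS2, which recruit class I PI3K, a dimer of a catalytic and a regulatory subunit. PI3K makes a membrane lipid that brings PDK1 and AKT together, lipid phosphatases remove it, and active AKT phosphorylates GSK3, the FOXO transcription factors, TSC2 and PRAS40. Loss of TSC activity lets RHEB switch on mTOR complex 1 (mTORC1, built on RAPTOR), which drives translation through S6 kinases and 4E-BP1, while mTOR complex 2 (mTORC2, built on RICTOR) phosphorylates AKT itself. Activating changes of this pathway are frequent in urothelial carcinoma.

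On the transcripts kept, the libraries held between 24479348.5 and 35151256.5 counts. N6AMT1 had 11.4, 10.2 and 9.68 CPM (a library-size scaled count, with TMM factors set within the line) in the siCtrl libraries of CAL-29 cells and 2.82, 2.93 and 1.99 CPM in the siKMT9α libraries. The corresponding levels in 5637 cells were 13.4, 13.2 and 13.3 CPM against 3.75, 2.22 and 2.56 CPM, so the groups were apart in both lines (log2 fold changes of -1.997, SE 0.15, and -2.23, SE 0.12). Of the urothelial and epithelial markers, 8 were lower and 1 was higher of 16 tested in CAL-29 cells, and 9 were lower and 2 higher of 14 tested in 5637 cells, at the threshold used below. Of all genes, 15.0% were lower and 15.0% higher in CAL-29 cells, and 17.6% were lower and 18.0% higher in 5637 cells. The summed level of the urothelial and epithelial markers ranged from 14935 to 15814 CPM with siCtrl in CAL-29 cells. With siKMT9α it ranged from 6667 to 6839 CPM there. In 5637 cells it ranged from 10595 to 11080 CPM against 6866 to 7109 CPM. Of these markers, none was at 0 in any group, EPCAM and KRT18 were abundant in every group, and 3 were under 1 CPM in each group. Of 10 leukocyte, endothelial, muscle and fibroblast markers, 6 to 8 were under 1 CPM in each group, DES and CD3E were at or near 0 throughout, and the summed level lay between 7.2 and 20.2 CPM. At the same threshold, 2 of 4 tested were higher in CAL-29 cells and 2 of 5 lower in 5637 cells. Of the urothelial and epithelial markers, 6 were lower and 1 was higher in both lines. Among the 6 were KRT17 (-3.05 and -1.72), EPCAM (-0.77 and -0.94) and KRT8 (-1.45 and -0.61), as log2 fold changes with CAL-29 first. KRT6A (-1.94 and 0.47) and the endothelial marker CDH5 (2.48 and -4.91) were called in opposite directions. The part of these marker changes in the results below was not tested. In bulk RNA, fewer cells of a kind and less RNA per cell cannot be told apart.

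Sequences are shown first for the place where the siRNA pairs with its target and for the members whose longest annotated 3′ UTR holds the same site, since 3 of the 4 members that fell in both lines are among them. The methods of the study give the sequence of siKMT9α#1, and its results name siKMT9α#1 for these libraries, whereas the deposited columns call the siRNA si270. That sequence lies in exon 3 of N6AMT1, in coding sequence, on chromosome 21 (GRCh37, also called hg19). Capitals mark the 7 bases complementary to positions 2 to 8 (the seed) of the guide strand. Each window is 25 bases of mRNA, written 5′ to 3′ from the GENCODE transcripts for GRCh37, and all but the target come from 3′ UTRs.
N6AMT1 target, chr21:30254500-30254524, minus strand: acgctgtaacaaagttcACATTCAa
AKT1, chr14:105235760-105235784, minus strand: cacggcgtttttttacaACATTCAa
RICTOR, chr5:38940445-38940469, minus strand: ggattaacatattttagACATTCAt
INPP4B, chr4:142944850-142944874, minus strand: acactcacagtgtaaatACATTCAt
FOXO1, chr13:41130267-41130291, minus strand: cccaacttaaaattcttACATTCAa
PIK3R1, chr5:67594101-67594125, plus strand: aaacaggacttaaaatgACATTCAg

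Outside the capitals, the windows of the members shared 1 (AKT1), 4 (RICTOR), 5 (INPP4B), 7 (FOXO1) and 7 (PIK3R1) of 18 bases with the target at the same position, so the likeness lay in the site. In AKT1 and FOXO1 the site is followed by A, as it is in N6AMT1. The AKT1 site starts 911 bases after the stop codon in a 3′ UTR of 992 bases, and that of RICTOR 1954 bases after it in one of 4384 bases. Of the 37 members, 5 (13.5%) held the site ACATTCA in their longest annotated 3′ UTR, beside 15.4% of 12394 genes tested in both lines with an annotated 3′ UTR. In that 3′ UTR it was present in 3 of 4 members that were lower in both lines, beside 41.0% of all genes lower in both, and in 0 of 5 that were higher in both, beside 7.43% of all such genes. It was present in 4 of 9 members lower in CAL-29 cells, beside 29.9% of all genes lower there. Of 18 members that were higher in at least 1 line, 0 held it. This is beside 8.94% of all genes higher in CAL-29 and 7.9% of those higher in 5637 cells, so the site was infrequent among all such genes too. The members that fell have longer 3′ UTRs than all genes that fell. The median was 3226 bases for those lower in both lines against 2103 for all genes lower in both. It was 3966 against 2029 bases for those lower in CAL-29 cells. Long 3′ UTRs were not particular to members that fell. The median was 3112 bases for members higher in at least 1 line and 2038 for those higher in both. For all 37 members it was 2441, against 1521 for all genes. The counts also depend on the 3′ UTR chosen. In the shortest annotated one the site was present in 1 of 4 members lower in both lines (AKT1), beside 18.1% of all such genes. It was present there in 1 of 18 members higher in at least 1 line (SGK1, 5.56%), beside 6.01% of all genes tested in both lines. The share of all genes higher in at least 1 line was not computed. Of 5 members higher in both lines, 0 held it there, beside 2.9% of all such genes. The members that were lower in both lines and hold the site in the longest 3′ UTR are AKT1, RICTOR and INPP4B, and PIK3CD is the one without it. FOXO1 holds the site and was lower in CAL-29 cells, with a log2 fold change of -2.07 (standard error, SE, 0.06), whereas its log2 fold change in 5637 cells was -0.04 (SE 0.08). PIK3R1 holds it and was called in neither line. A matching site is a description of the sequence. These libraries hold no other siRNA against KMT9α, so the part of the site in these changes was not tested. The study reports differential expression of AKT1 by quantitative RT-PCR. It also reports reduced AKT1 protein in Western blots of both lines, which included both of its siRNAs against KMT9α. The sequences given for these siRNAs overlap over most of their length. For siKMT9α#2, the 7 bases complementary to positions 2 to 8 of its guide were searched as its site. In the longest 3′ UTR, that site is absent from AKT1 and INPP4B and present in RICTOR. The sequence of siKMT9α#2 ends 1 base earlier on the target, so ACATTCA is complementary to positions 1 to 7 of its guide. By that pairing, the site shown above also matches siKMT9α#2, and the part of either match was not tested.

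A gene counted as called where its unadjusted p was under 1e-06, by edgeR's quasi-likelihood test in each line. In CAL-29 cells, all 37 members passed the filter on low counts, of which 8 were higher and 9 were lower with siKMT9α. This is beside a background of 15.0% of 14673 genes called higher and 15.0% called lower. In 5637 cells, 36 members were tested, of which 15 were higher and 4 were lower, beside 18.0% higher and 17.6% lower of 14335 genes. Scaling by total counts changed the split in CAL-29 cells to 12 higher and 8 lower, and upper quartile scaling changed it to 5 higher and 9 lower. The median log2 fold change of all genes there moved as well, from -0.016 with TMM to 0.064 and -0.045. The shares of all genes called under these 2 scalings were not computed. With TMM, the share called higher was 21.6% of the members tested in CAL-29 and 41.7% in 5637 cells, and the share called lower was 24.3% and 11.1%. The median log2 fold change of the members was 0.17 in CAL-29 and 0.16 in 5637 cells, where the median of all genes was -0.02 and -0.01. At a Benjamini-Hochberg adjusted p below 0.05, 18 members were higher and 11 lower in CAL-29 cells (background 34.3% and 35.2%), and 20 were higher and 10 lower in 5637 cells (background 35.1% and 35.6%).

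Across the lines, 5 members were higher in both (PIK3CA, PIK3R3, MLST8, RPTOR and AKT1S1) and 4 were lower in both (AKT1, PIK3CD, INPP4B and RICTOR), beside 8.45% and 8.49% of 13674 genes. No member was called in opposite directions, beside 1.76% of genes. Another 3 were higher and 5 lower in CAL-29 cells alone, 10 were higher in 5637 cells alone, and 10 were called in neither line. The shares of all genes with these patterns were not computed, so these counts are not read as particular to the members. The common coefficient of variation between libraries in edgeR was 5.09% in CAL-29 and 3.34% in 5637 cells. A call in 1 line alone does not show that the lines differ. No called member had a siKMT9α library within the range of its siCtrl libraries. With 3 libraries against 3, a call at this threshold nearly requires that, so it is no further support, here or for single members below. Most changes were small: 6 of the 17 called members in CAL-29 cells and 4 of the 19 in 5637 cells exceeded 1 on the log2 scale. Among the 18 members with several RefSeq transcripts tested, the log2 fold changes of the transcripts of a member differed by at most 0.10 in CAL-29 cells (MAPKAP1) and by less in 5637 cells. Transcripts of a gene share reads, so this is no independent measurement.

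**Figure D1:**
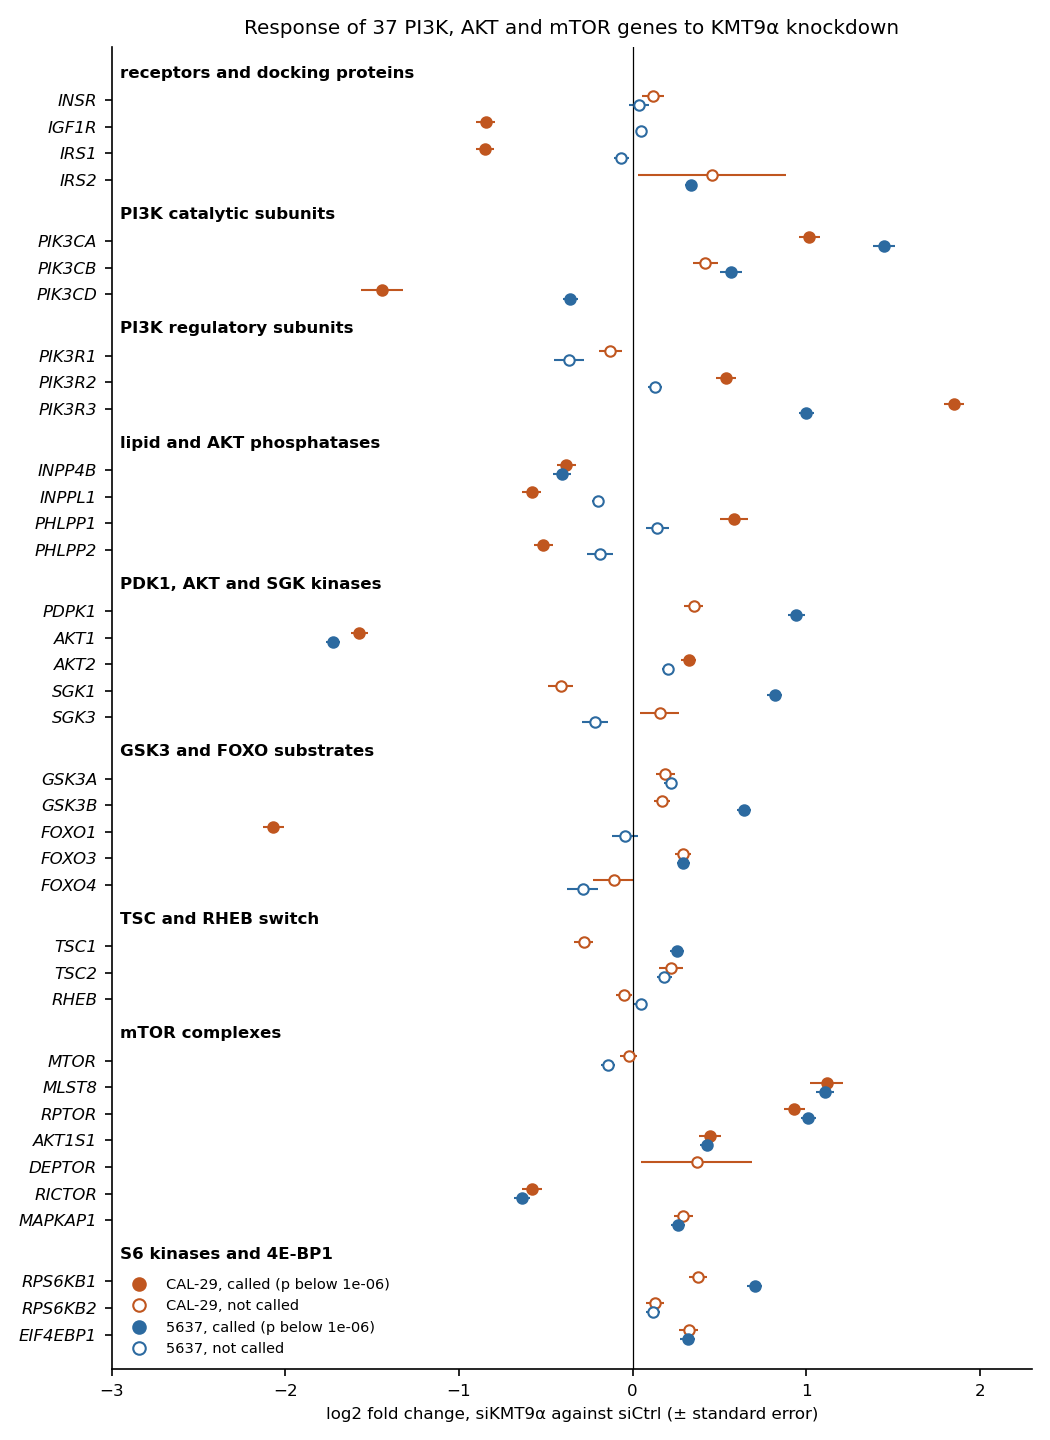
Log2 fold change of the 37 members (siKMT9α against siCtrl, horizontal axis) with its standard error, grouped by role, for CAL-29 (orange) and 5637 (blue) cells; filled points passed an unadjusted p below 1e-06. AKT1 lies at -1.57 and -1.72, FOXO1 at -2.07 in CAL-29 cells only, and PIK3CA, PIK3R3, MLST8 and RPTOR lie near or above 1 in both lines.

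At the top of the pathway, IGF1R and IRS1 fell in CAL-29 cells and were called in 5637 cells in neither case. IGF1R, the receptor for insulin-like growth factors (chromosome 15, from 99191768 to 99507759), had 357, 310 and 310 CPM with siCtrl and 184, 180 and 180 CPM with siKMT9α in the CAL-29 line. Its log2 fold change was -0.85 (SE 0.05, adjusted p = 1.62e-11 in edgeR). In 5637 cells it had 222, 218 and 214 CPM against 234, 222 and 220 CPM, and the groups overlapped. IRS1, which docks PI3K to these receptors (chromosome 2, from 227596028 to 227664536), had 132, 132 and 138 CPM against 78.5, 73.1 and 71.4 CPM in CAL-29 cells, with a change of -0.85 on the log2 scale (SE 0.05, adjusted p = 3.48e-12). Its levels in 5637 cells were 67.3, 73.3 and 69.3 CPM against 66.1, 66.2 and 68.3 CPM. The insulin receptor gene INSR was called in neither line, with log2 fold changes of 0.12 and 0.04. IRS2, the other docking protein, was higher in 5637 cells by 0.34 (SE 0.04). In CAL-29 cells IRS2 stood at 0.35 CPM with siCtrl and 0.48 CPM with siKMT9α, with an SE of 0.43 on its log2 fold change, so a change of that size was not detectable at this depth.

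The catalytic subunits of class I PI3K moved apart. PIK3CA, encoding p110α (chromosome 3, plus strand, from 178865902 to 178957881), had 25.5, 23.5 and 24.7 CPM with siCtrl and 47.5, 51.0 and 50.5 CPM with siKMT9α in CAL-29 cells. The 5637 libraries had 13.0, 13.1 and 12.7 CPM against 38.0, 32.6 and 35.2 CPM. Its log2 fold change was 1.02 (SE 0.06, adjusted p = 6.40e-12) in CAL-29 and 1.45 (SE 0.07, adjusted p = 9.89e-18) in 5637 cells, with no overlap between the groups. Of its exon bases, 19.8% are also covered by exons of KCNMB3 on the other strand, and the counting is not stated to use strand. PIK3CB, encoding p110β, was higher in 5637 cells by 0.57 (SE 0.07) and had 0.42 on the log2 scale in the other line, where it missed the threshold (adjusted p = 3.20e-05).

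PIK3CD, encoding p110δ, the form best known from leukocytes (chromosome 1, from 9689947 to 9789172), fell in both lines. It had 20.6, 15.9 and 16.2 CPM against 5.58, 7.41 and 6.32 CPM in CAL-29 cells, and 59.5, 60.1 and 59.9 CPM against 47.5, 45.6 and 46.7 CPM in 5637 cells. The log2 fold change was -1.44 (SE 0.12, adjusted p = 1.34e-09) and -0.36 (SE 0.04, adjusted p = 1.83e-08), and the groups were apart in each line. In a joint fit of all libraries PIK3CD in 5637 cells had an unadjusted p of 8.81e-06 in edgeR, which is past the adjusted threshold but not past 1e-06. The annotation lists a pseudogene, PIK3CDP1, which can take reads from it.

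Among the regulatory subunits, PIK3R3, encoding p55γ (chromosome 1, minus strand, from 46505812 to 46598708), rose most. Its levels in CAL-29 cells were 24.1, 27.2 and 26.6 CPM with siCtrl and 93.4, 95.4 and 92.1 CPM with siKMT9α, and in 5637 cells 45.7, 44.1 and 44.3 CPM against 94.0, 84.7 and 89.3 CPM. This gave a log2 fold change of 1.85 (SE 0.06, adjusted p = 1.32e-16) and 0.999 (SE 0.04, adjusted p = 5.28e-18). The lines started at different levels and the siKMT9α libraries of both ended near 90 CPM, each scaled within its line. A readthrough gene shares 17.5% of its exon bases. PIK3R2, encoding p85β, was higher in CAL-29 cells by 0.54 (SE 0.06) and had a log2 fold change of 0.13 in 5637 cells. Of the PIK3R2 exon bases, 76.4% are shared on the same strand with another annotated gene, ENSG00000268173, so its counts are uncertain. PIK3R1, encoding p85α, had log2 fold changes of -0.13 in CAL-29 and -0.37 in 5637 cells, of which the latter passed the adjusted threshold only (adjusted p = 0.000351).

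The phosphatases that oppose PI3K and AKT did not move as a group. INPP4B, a phosphatase of PI3K products (chromosome 4, from 142944313 to 143768585), had 53.1, 53.6 and 52.5 CPM against 40.4, 39.9 and 41.9 CPM in CAL-29 cells. In 5637 cells it had 54.8, 56.1 and 51.3 CPM against 40.8, 38.0 and 43.3 CPM. The log2 fold change was -0.38 (SE 0.05, adjusted p = 2.43e-06) and -0.41 (SE 0.05, adjusted p = 4.18e-08), with the groups apart in both lines. The call in CAL-29 cells was lost without siCtrl replicate 2 or 3 or without any 1 of the siKMT9α replicates, where the unadjusted edgeR p was between 2.79e-06 and 2.19e-05. INPPL1, encoding the lipid phosphatase SHIP2, and PHLPP2, an AKT phosphatase, fell in CAL-29 cells by 0.58 and 0.51 on the log2 scale and had -0.20 and -0.19 in 5637 cells. The paralog PHLPP1 rose in CAL-29 cells, with a log2 fold change of 0.58 (SE 0.08), against 0.14 (SE 0.07) in 5637 cells. The PHLPP1 call was lost without siCtrl replicate 2 or 3 or any siKMT9α replicate (unadjusted edgeR p between 1.61e-06 and 1.18e-05), and that of PHLPP2 without siKMT9α replicate 3 (1.16e-06).

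AKT1, the kinase at the centre of the pathway (chromosome 14, minus strand, from 105235686 to 105262088), showed the strongest fall of the members in 5637 cells and the second strongest in CAL-29 cells, after FOXO1. It had 168, 182 and 180 CPM with siCtrl and 58.1, 59.6 and 60.3 CPM with siKMT9α in CAL-29 cells. In 5637 cells the libraries had 207, 212 and 228 CPM against 64.8, 67.7 and 63.4 CPM. The log2 fold change was -1.57 (SE 0.05, adjusted p = 1.43e-16) in CAL-29 and -1.72 (SE 0.04, adjusted p = 1.88e-24) in 5637 cells, a fall of 2.98-fold and 3.30-fold. Exons on the other strand cover 6.1% of its exon bases. For AKT2, the close paralog, the log2 fold change was 0.32 (SE 0.04, adjusted p = 1.92e-06) in CAL-29 cells and 0.20 (SE 0.03, adjusted p = 3.15e-06) in 5637 cells, where it missed 1e-06. Without siCtrl replicate 2 or any siKMT9α replicate, AKT2 in CAL-29 cells also missed it (unadjusted edgeR p between 5.14e-06 and 1.63e-05). PDPK1, encoding PDK1, which activates AKT and SGK, was higher in 5637 cells by 0.94 (SE 0.05) and had 0.35 (SE 0.05) in CAL-29 cells. Exons on the other strand cover 23.7% of its exon bases.

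SGK1, an AKT-like kinase that mTORC2 activates (chromosome 6, from 134490386 to 134639250), split between the lines. In CAL-29 cells it had 60.6, 59.2 and 55.0 CPM with siCtrl and 49.9, 40.6 and 40.5 CPM with siKMT9α, a log2 fold change of -0.41 (SE 0.07, adjusted p = 2.89e-05) that missed 1e-06. In 5637 cells it had 73.1, 73.4 and 64.5 CPM against 126, 122 and 124 CPM, a log2 fold change of 0.82 (SE 0.04, adjusted p = 3.19e-16). All siKMT9α libraries were thus below siCtrl in the former line and above it in the latter. SGK3, a relative recruited to endosomes, was called in neither line, and 44% of its exon bases are shared with a readthrough gene.

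FOXO1, a transcription factor that AKT excludes from the nucleus (chromosome 13, minus strand, from 41129804 to 41240778), had 62.3, 63.5 and 63.0 CPM with siCtrl and 14.3, 15.7 and 14.9 CPM with siKMT9α in CAL-29 cells. Its log2 fold change there was -2.07 (SE 0.06, adjusted p = 8.04e-17), a fall of 4.20-fold. In 5637 cells it had 15.2, 17.3 and 17.7 CPM against 17.5, 15.1 and 16.1 CPM, so that the groups overlapped near the level to which CAL-29 cells fell. Another annotated gene on the same strand shares 22.7% of the FOXO1 exon bases. The paralog FOXO3 had a log2 fold change of 0.29 in each line (SEs 0.05 and 0.04), past 1e-06 in 5637 cells only, and the transcript counted was not the same in the lines. FOXO4 was called in neither. Among the other direct substrates, GSK3B was higher in 5637 cells by 0.64 (SE 0.04), beside 0.17 in CAL-29 cells, and GSK3A had 0.19 and 0.22, called in neither line.

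The TSC complex and RHEB, the switch between AKT and mTORC1, moved little. TSC1 was higher in 5637 cells by 0.25 (SE 0.04) and had -0.28 (SE 0.06, adjusted p = 0.000136) in CAL-29 cells, with the libraries apart in opposite directions. Its call in 5637 cells was lost without siCtrl replicate 2 or 3 or siKMT9α replicate 1 or 3 (unadjusted edgeR p between 3.22e-06 and 2.07e-05). TSC2 had log2 fold changes of 0.22 in CAL-29 and 0.18 in 5637 cells and RHEB of -0.05 and 0.05, none of them called.

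Within the mTOR complexes, the kinase gene MTOR was called in neither line (-0.02 and -0.14), while genes of its partners diverged. RPTOR, encoding RAPTOR, the scaffold of mTORC1 (chromosome 17, from 78518619 to 78940171), had 42.1, 37.4 and 35.2 CPM against 72.3, 72.6 and 73.5 CPM in CAL-29 cells, and 41.3, 43.1 and 46.2 CPM against 87.5, 87.7 and 88.4 CPM in 5637 cells. The log2 fold change was 0.93 (SE 0.06, adjusted p = 2.14e-11) and 1.01 (SE 0.04, adjusted p = 3.78e-18). MLST8, a subunit of both complexes (chromosome 16, from 2254249 to 2259454), had 7.51, 7.86 and 8.05 CPM against 17, 15.9 and 18.1 CPM in CAL-29 cells, and 22.3, 23.9 and 23.9 CPM against 50.2, 51.8 and 49.1 CPM in 5637 cells. Its log2 fold changes were 1.12 (SE 0.10, adjusted p = 1.55e-09) and 1.11 (SE 0.05, adjusted p = 2.29e-17). Both genes rose by about the same log2 amount in either line, and no library of one group reached the other group.

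AKT1S1, encoding PRAS40, an mTORC1 inhibitor that AKT phosphorylates (chromosome 19, from 50372290 to 50381716), rose less. It had 43.4, 47.8 and 45.0 CPM against 67.2, 59.0 and 59.3 CPM in CAL-29 cells, and 78.5, 80.3 and 80.9 CPM against 104, 110 and 108 CPM in 5637 cells. The log2 fold change was 0.45 (SE 0.06, adjusted p = 1.71e-06) and 0.43 (SE 0.04, adjusted p = 3.37e-11). The groups were apart, but the call in CAL-29 cells was lost without siCtrl replicate 2 or 3 or any siKMT9α replicate (unadjusted edgeR p between 1.11e-06 and 9.14e-06).

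RICTOR, the scaffold of mTORC2 (chromosome 5, minus strand, from 38938022 to 39074504), fell in both lines. Its libraries had 101, 87.1 and 88.1 CPM against 62.1, 60.9 and 61.6 CPM in CAL-29 cells, and 78.9, 77.6 and 70.0 CPM against 50.2, 48.3 and 47.3 CPM in 5637 cells. The log2 fold change was -0.58 (SE 0.06, adjusted p = 1.26e-08) and -0.64 (SE 0.05, adjusted p = 9.08e-13), with no overlap. MAPKAP1, encoding the mTORC2 subunit SIN1, was higher in 5637 cells by 0.26 (SE 0.04) and had 0.29 (SE 0.06) in CAL-29 cells, where it was not called. Its call was lost without siCtrl replicate 1 or 2 or siKMT9α replicate 1 or 3 (unadjusted edgeR p between 1.05e-06 and 2.08e-05). DEPTOR, an inhibitor of both complexes, was near 0 in 5637 cells, at 0.121 CPM with siCtrl and 0.0686 CPM with siKMT9α, and was not tested there. At the output of mTORC1, RPS6KB1, encoding S6 kinase 1, was higher in 5637 cells by 0.70 (SE 0.04) and had 0.38 (SE 0.05, adjusted p = 3.39e-06) in CAL-29 cells. EIF4EBP1, encoding the translation repressor 4E-BP1, had 0.32 in both lines and was called in 5637 cells only, a call lost without siCtrl replicate 1 or 3 or siKMT9α replicate 2 or 3 (unadjusted edgeR p between 1.36e-06 and 2.86e-06). RPS6KB2 was called in neither line. Annotated pseudogenes of EIF4EBP1 and RHEB, and near-identical copies of FOXO3 and PDPK1, can take reads from these members.

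**Figure D2:**
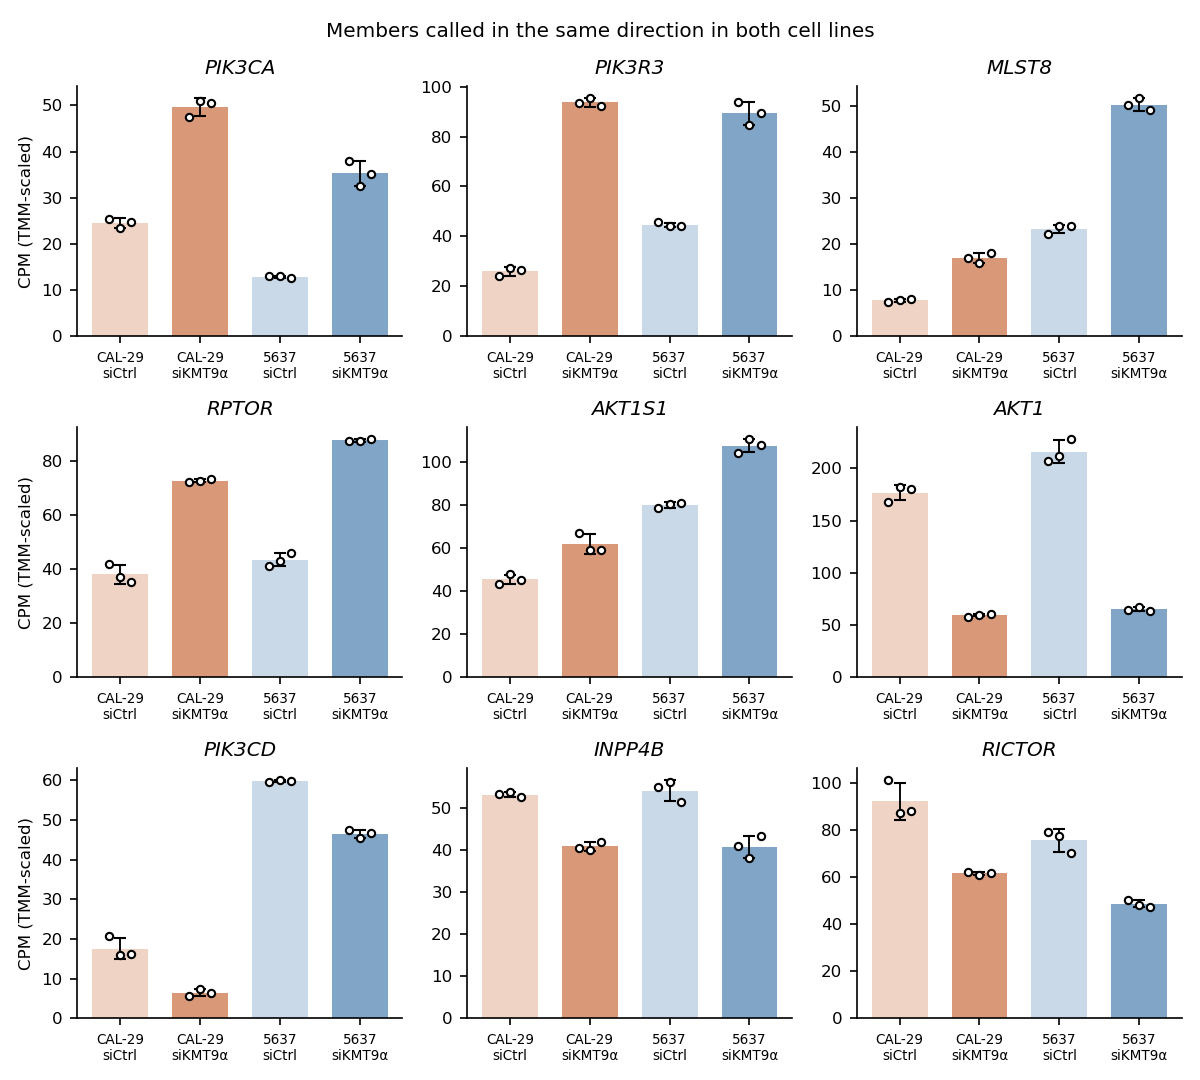
Level in CPM (vertical axes, from 0) of the 9 members called in the same direction in both lines; bars are means, error bars SD and circles the 3 libraries of each group. PIK3CA, PIK3R3, MLST8, RPTOR and AKT1S1 are higher, and AKT1, PIK3CD, INPP4B and RICTOR lower, in every siKMT9α library.

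The makeup of each small family was computed in every library from levels per length (CPM per kilobase of the MANE Select transcript, which can differ from the RefSeq transcript counted). AKT1 made up 74.3%, 75.3% and 75.3% of the summed AKT1 and AKT2 level in the siCtrl libraries of CAL-29 cells and 44.3%, 44.7% and 44.7% in the siKMT9α libraries. In 5637 cells it made up 71.1%, 71.3% and 73.2% against 40.4%, 41.0% and 39.1%. AKT2 was therefore the minor form with siCtrl and the major form with siKMT9α in each library of both lines.

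The catalytic subunits shifted from PIK3CD towards PIK3CA. PIK3CD was 29.0% ± 3.3 (SD, n = 3) of their summed level with siCtrl and 8.71% ± 0.77 (SD, n = 3) with siKMT9α in the CAL-29 line, and 72.7% ± 0.99 against 52.2% ± 0.98 (SD, n = 3 each) in 5637 cells. PIK3CA went from 23.8% ± 0.94 to 39.5% ± 0.90 in CAL-29 and from 9.18% ± 0.076 to 23.0% ± 0.86 in 5637 cells (SD, n = 3 each). PIK3CB was the largest of them in CAL-29 cells, at 47.2% ± 3.6 and 51.8% ± 0.43, and PIK3CD the largest in 5637 cells, with either siRNA. The order of PIK3CA and PIK3CB depends on the lengths used. Without them, the siKMT9α libraries of CAL-29 cells had means of 49.7 CPM for PIK3CA and 44.2 CPM for PIK3CB. Among the regulatory subunits, PIK3R3 went from 21.8% ± 0.55 to 43.8% ± 1.7 in CAL-29 cells and from 22.3% ± 1.3 to 34.8% ± 1.2 in 5637 cells (SD, n = 3 each).

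RPTOR, set against RICTOR, went from 36.6% ± 0.85 of their sum to 62.3% ± 0.32 in CAL-29 cells and from 44.6% ± 3.0 to 71.6% ± 0.72 in 5637 cells (SD, n = 3 each). The scaffold of mTORC2 had the higher level with siCtrl and that of mTORC1 with siKMT9α, in every library. These shares restate the changes of the genes on another scale, and are given as a description. An exact permutation test of siKMT9α against siCtrl gave p = 0.1 in each of 18 comparisons of shares. That is the smallest p that 3 libraries against 3 can give, so the test cannot decide.

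**Figure D3:**
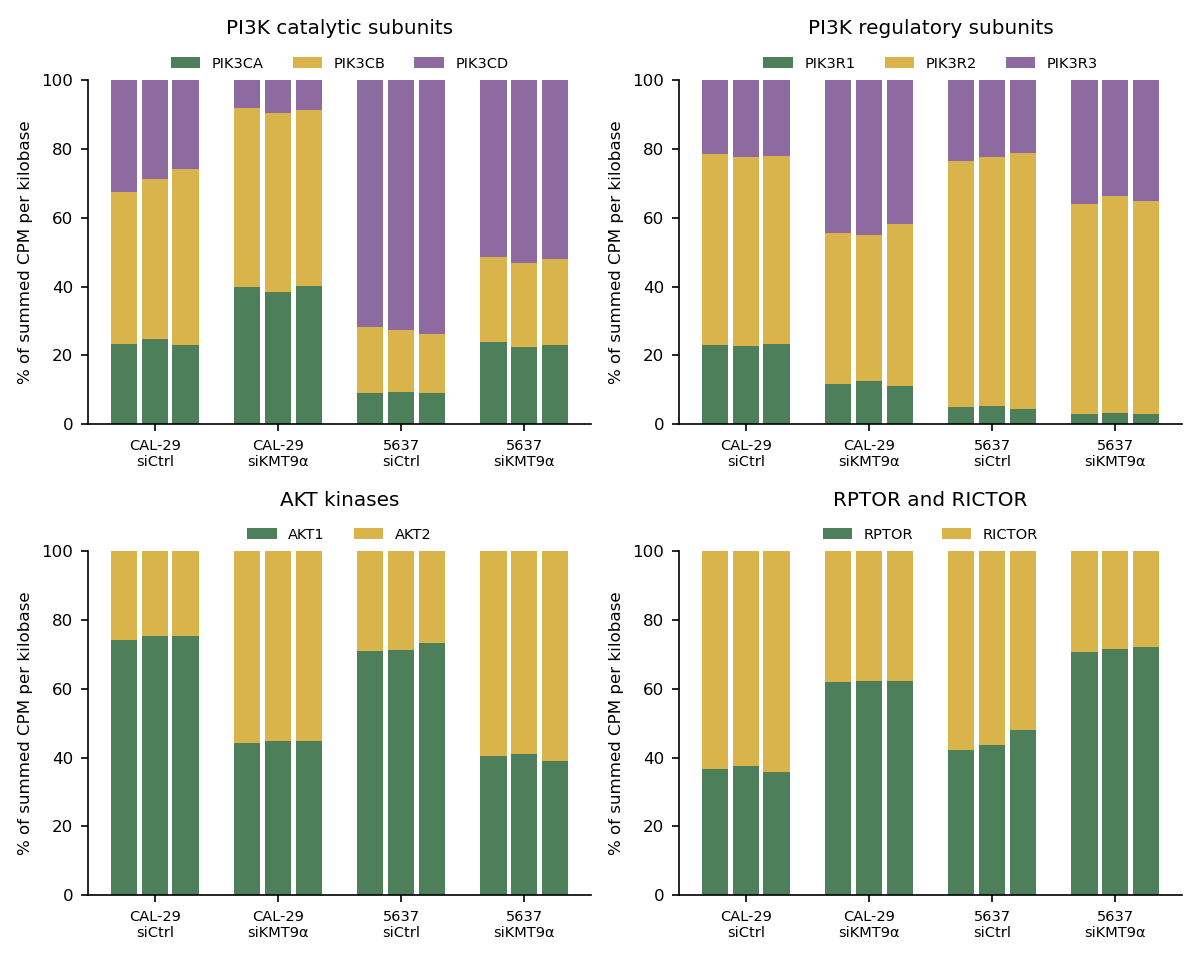
Share of each gene in the summed level per length of its family (vertical axes, % of CPM per kilobase), 1 bar per library, for PI3K catalytic subunits, PI3K regulatory subunits, AKT kinases, and RPTOR with RICTOR. AKT1 drops from over 70% to under 45% and RPTOR rises from under 48% to over 61% in both lines.

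A difference in the response of the lines was sought by an interaction term fitted to all 12 libraries, against a difference of 1.5-fold (glmTreat in edgeR). Of 15395 genes, 10.7% passed at an adjusted p below 0.05, and 6 of the 37 members did. FOXO1 had the largest difference, with a response 2.01 higher on the log2 scale in 5637 than in CAL-29 cells (SE 0.10, adjusted p = 1.29e-13). SGK1 followed with 1.22 (SE 0.09, adjusted p = 2.07e-07), PIK3CD with 1.06 (SE 0.12, adjusted p = 0.000593), IGF1R with 0.88 (SE 0.07, adjusted p = 0.000175) and IRS1 with 0.77 (SE 0.06, adjusted p = 0.0108). The call of IRS1 was lost with scaling by total counts (0.65, adjusted p = 0.306) and in DESeq2 (0.79, adjusted p = 0.0543). In PIK3R3 the response was smaller in 5637 cells, by -0.87 (SE 0.07, adjusted p = 0.000877).

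Thus 4 of the 6 (FOXO1, PIK3CD, IGF1R and IRS1) fell more in CAL-29 cells, PIK3R3 rose more there, and SGK1 lay on opposite sides of siCtrl. For AKT1 the difference was -0.17 (SE 0.06), for RPTOR 0.06 (SE 0.08), for MLST8 -0.02 (SE 0.10), for RICTOR -0.07 (SE 0.08) and for INPP4B -0.04 (SE 0.08), none past 1.5-fold. For PIK3CA it was 0.41 (SE 0.09), also short of it. Against no difference, 19 members passed at an adjusted p below 0.05 in edgeR, among them AKT1 (adjusted p = 0.0334) and PIK3CA (adjusted p = 0.000348). The share of all genes that pass against no difference was not computed, so this count is not read as particular to the members.

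**Figure D4:**
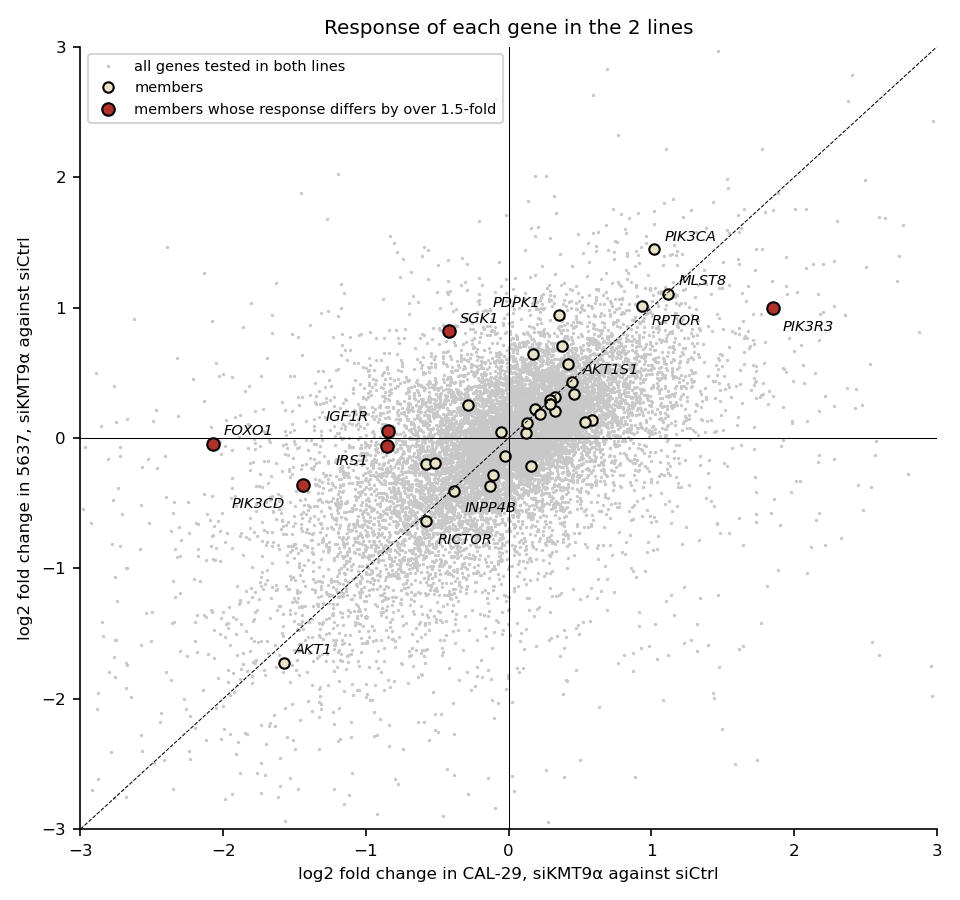
Log2 fold change of siKMT9α against siCtrl in CAL-29 (horizontal axis) and 5637 cells (vertical axis) for genes tested in both lines (grey), with 36 members as circles and the 6 whose response differs by over 1.5-fold in red; 94 genes lie outside the axes and the dashed line marks equal change. AKT1, RICTOR, INPP4B, MLST8, RPTOR and AKT1S1 lie close to the dashed line, whereas FOXO1, IGF1R and IRS1 lie near 0 for 5637 cells.

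The levels from which the members started were compared between the siCtrl groups of the lines, with the same 1.5-fold test. In 5637 cells 7 members were higher and 9 were lower than in CAL-29 cells, beside 25.6% and 25.9% of all genes. IRS2 stood apart, with a log2 difference of 8.73 (SE 0.10) between 5637 and CAL-29 cells, where the siCtrl libraries of CAL-29 cells had 0.286, 0.234 and 0.529 CPM and those of 5637 cells 142, 151 and 140 CPM. PIK3CD (1.84), MLST8 (1.65), PIK3R2 (1.22), PHLPP1 (1.19), AKT1S1 (0.88) and PIK3R3 (0.85) were also higher in 5637 cells on the log2 scale. DEPTOR (-2.51), FOXO1 (-1.84), PHLPP2 (-1.83), PIK3R1 (-1.42), IRS1 (-0.87), PIK3CB (-0.87), PIK3CA (-0.86), FOXO3 (-0.77) and GSK3B (-0.66) were lower. CAL-29 cells thus held IRS1 as nearly their only IRS docking transcript, and 5637 cells both. DEPTOR had a mean of 4 counts in the siCtrl libraries of 5637 cells, so its difference rests on few reads.

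Per length, EIF4EBP1 had the highest level of the members in siCtrl cells of both lines, with 126 ± 9.34 CPM per kilobase (SD, n = 3) in CAL-29 and 149 ± 9.24 (SD, n = 3) in 5637 cells. It was followed by RHEB (68.4 ± 2.55) and AKT1 (58.1 ± 2.56) in CAL-29 cells and by AKT1 (74.4 ± 3.72) and RHEB (60.8 ± 1.68) in 5637 cells (SD, n = 3 each). In 5637 cells, RHEB and RPS6KB2 (57.0 ± 2.90) overlapped. At the other end were IRS2 and DEPTOR in CAL-29 cells, with 0.0417 and 0.281 CPM per kilobase, and DEPTOR in 5637 cells, with 0.0479. PIK3CA was low in either line, at 2.58 ± 0.101 in CAL-29 and 1.42 ± 0.0249 CPM per kilobase in 5637 cells (SD, n = 3 each), the latter the lowest but for DEPTOR. Such ranks rest on MANE Select lengths, which can differ from those of the transcripts counted. Of 36 neighbouring pairs in the order of levels, 18 in CAL-29 and 23 in 5637 cells did not overlap between libraries.

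**Figure D5:**
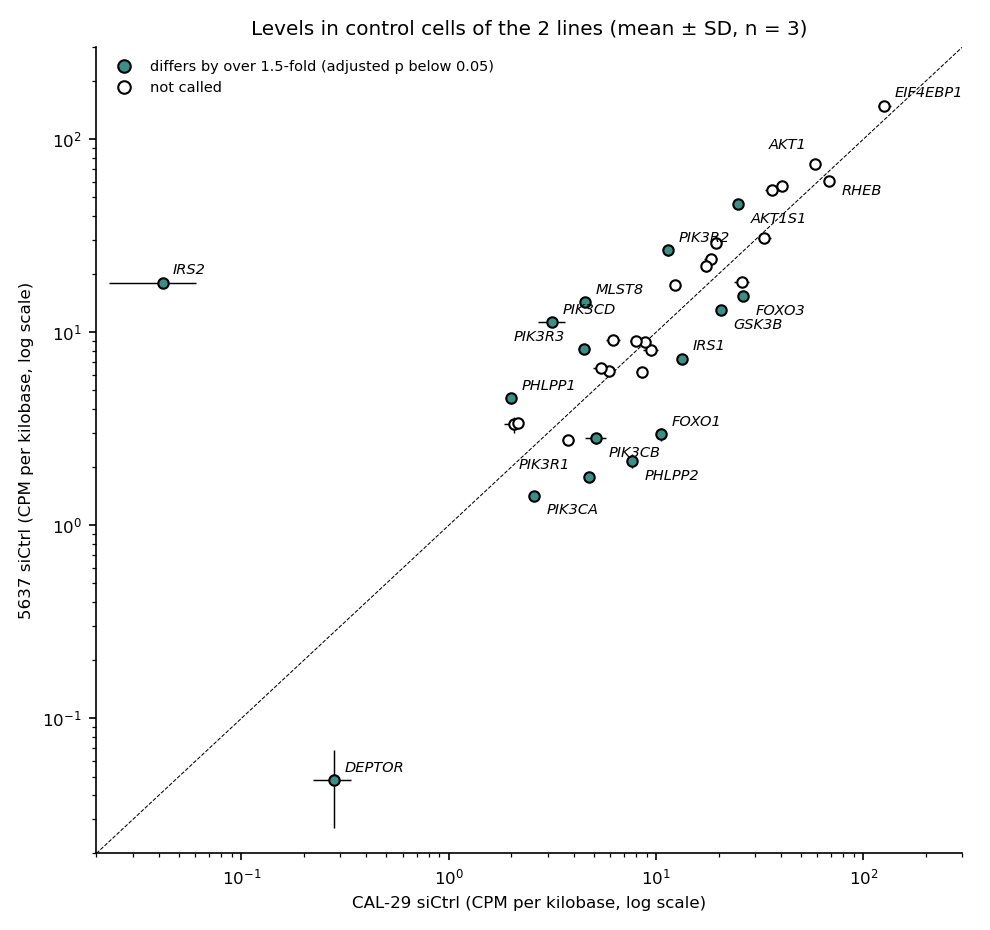
Level per length (CPM per kilobase, log axes, mean ± SD of 3 libraries) of the 37 members in siCtrl cells of CAL-29 (horizontal) and 5637 (vertical); filled points differ by over 1.5-fold, and the dashed line marks equal levels. IRS2 lies far above the line, FOXO1 and DEPTOR below it, and EIF4EBP1, AKT1 and RHEB are at the top in both lines.

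Other genes of the pathway were taken from lists written by role. Each count below stands beside 15.0% higher and 15.0% lower of all genes in CAL-29 cells, and 18.0% higher and 17.6% lower in 5637 cells. Of the other PI3K subunits and phosphoinositide enzymes, 2 were higher and 8 lower of 24 tested in CAL-29 cells, and 6 were higher and 7 lower of 23 in 5637 cells, which is 8.33% and 33.3%, then 26.1% and 30.4%. PIK3C2A, a class II PI3K, fell by 1.52 and 2.04 on the log2 scale, and PIP4K2B and PIP4K2C, kinases of a related lipid, fell by 1.44 and 1.46 and by 1.19 and 1.11 (CAL-29 first). SYNJ2, a lipid phosphatase, went in opposite directions (-0.41 and 0.37). Among 18 adaptors upstream of PI3K, 4 were higher (22.2%) and 4 lower (22.2%) in CAL-29 cells and 9 were higher (50%) and 3 lower (16.7%) in 5637 cells, led by SHC1 (0.99 and 1.15) and with GRB2 (0.49 and 0.49) and SH2B1 (-0.85 and -0.59). IGF2R, which clears insulin-like growth factor 2, had -0.62 in CAL-29 and 0.23 in 5637 cells.

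Of the AKT regulators and substrates, 3 were higher and 6 lower of 24 in CAL-29 cells, and 8 were higher and 3 lower of 23 in 5637 cells (12.5% and 25%, then 34.8% and 13%). TRIB2 had log2 fold changes of 1.67 and 0.77, PPP2CA, a catalytic subunit of the phosphatase PP2A, -0.77 and -0.85, and PALLD -1.41 and -0.70. Among the amino acid and energy inputs to mTORC1, 5 were higher and 10 lower of 42 in CAL-29 cells, and 7 were higher and 6 lower of 42 in 5637 cells (11.9% and 23.8%, then 16.7% and 14.3%), so the counts in 5637 cells were near the background. LAMTOR1, which anchors mTORC1 machinery on lysosomes, rose by 1.61 and 1.58, and DDIT4, encoding the mTORC1 inhibitor REDD1, by 0.83 and 1.42. FNIP2, a partner of folliculin, had -1.49 and -0.84. The amino acid transporter gene SLC7A5 (-0.39 and 0.51) and FNIP1 (-0.51 and 0.34) were called in opposite directions.

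Of the other mTOR partners and outputs, 4 were higher and 4 lower of 29 in CAL-29 cells, and 6 were higher and 4 lower of 28 in 5637 cells (13.8% and 13.8%, then 21.4% and 14.3%), near the background in both lines. POLDIP3, which binds S6 kinase 1, had log2 fold changes of 0.44 and 0.60, the ribosomal protein gene RPS6 0.78 and 0.32, and EIF4A1, an mRNA helicase of translation initiation, 0.37 and 0.21. Of genes that FOXO factors induce, 6 were higher and 6 lower of 24 in CAL-29 cells, and 5 were higher and 6 lower of 23 in 5637 cells (25% and 25%, then 21.7% and 26.1%). TXNIP (1.15 and 1.2) and SOD2 (2.36 and 0.95) rose in both lines, and SESN1 (-0.78 and -0.81) fell. The median log2 fold change of a list ranged from -0.22 to 0.20 (CAL-29) and from -0.22 to 0.18 (5637).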

How the data were processed

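Per the submitters' notes and methods, the authors used STAR (hg19), HOMER and edgeR. The deposited tables hold estimated counts in steps of 0.5, without normalization, for 37400 RefSeq transcripts. In further columns, the authors deposited a log2 fold change and a p-value (raw and adjusted) of their comparison, which entered no test. For each symbol the transcript with the most counts in a line was kept and rounded. Libraries were scaled with TMM, genes filtered with filterByExpr, and each line tested with edgeR 4.0.16 (quasi-likelihood F test, siRNA as the only term; R 4.3.3). The 12 libraries were fitted together for the interaction and for siCtrl between lines. The cut on unadjusted p follows the study. Standard errors are the log2 fold change divided by the square root of F. The tests were checked on simulated counts. Replicates differed by more than sampling noise (chi-square per degree of freedom 2.25 to 12.3).

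Members, lists and tests were chosen with earlier results of these data known. Values in every library are given for N6AMT1, AKT1, members called in both lines and members whose response differed between the lines. From each list, up to 3 genes called in both lines in 1 direction, with the largest smaller change, and up to 2 called in opposite directions are named, while members called in 1 line or neither are given by class. Sites were searched in GENCODE 3′ UTRs of at least 50 bases. Alternatives were other filters, scalings, tests, thresholds and transcripts, a joint fit, the replicate number as a term and each library left out. Python 3.11.15 read the annotation.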

Additional observations from a re-analysis of the deposited data

Results flagged for a closer look

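By the interaction test against 1.5-fold, the response to siKMT9α differed between the lines for 6 members. The response in 5637 cells minus that in CAL-29 cells was 2.01 for FOXO1, 1.22 for SGK1, 1.06 for PIK3CD, 0.88 for IGF1R, 0.77 for IRS1 and -0.87 for PIK3R3, all on the log2 scale. TSC1, with a difference of 0.52 (adjusted p = 3.21e-07 against no difference in edgeR), did not pass that test and is given because its libraries lay on opposite sides of siCtrl in the lines: 76.2, 67.7 and 68.2 CPM with siCtrl and 59.6, 57.9 and 56.8 CPM with siKMT9α in CAL-29 cells, against 78.3, 75.2 and 73.4 CPM and 92.8, 86.5 and 91.1 CPM in 5637 cells.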

How the results depend on the processing

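Of 504 log2 fold changes of called members under the alternatives, 457 kept their direction and their side of 1e-06, 47 kept the direction only and 0 turned. Of 114 differences between the responses, 112 kept both and 2, those of IRS1, kept the direction only. At an adjusted p below 0.05, 29 members were called in CAL-29 and 30 in 5637 cells; where a change of at least 1 on the log2 scale was required as well, 6 and 4 passed. Leaving out 1 library gave 12 to 23 called members (CAL-29) and 16 to 19 (5637). Besides the losses given with the members, INPP4B was lost in CAL-29 cells with total-count scaling, AKT1S1, AKT2 and PHLPP1 there with upper quartile scaling, and in 5637 cells MAPKAP1 and TSC1 with either scaling, a minimum of 10 counts or the joint fit, and EIF4EBP1 with total-count scaling or the joint fit; the cause was not tested. Against no difference, 19 members differed in response and 35 between the siCtrl groups, with no share of all genes computed beside them. With the replicate number as a term (replicate block), 25 members were called in CAL-29 cells and 21 in 5637 cells, 6 differed in response and 15 between the siCtrl groups. The numbers are those of the sample titles; the descriptions number the siKMT9α libraries 4, 5 and 6, so that no number is shared. The titles' numbers did not pair the libraries: same-numbered deviations correlated by 0.149, 0.0194 and 0.0608 in CAL-29 and by 0.133, -0.00778 and -0.0136 in 5637 cells, and of the 3 numbers only 1 was its own best match in each line. The shortest 3′ UTR held the site in 4 members (10.8%, beside 6.01% of all genes), with SGK1 in place of RICTOR and INPP4B, and the longest held the site of siKMT9α#2 in 7 (18.9%, beside 13.8%). The longest transcript of each symbol was not run, for want of transcript lengths; the transcript with the next most counts, added after the data were seen, gave 18 and 19 calls. Members near 1 CPM or below (IRS2 in CAL-29 cells, DEPTOR) are limited by depth.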
